A study of Saccharomyces cerevisiae with 21 samples.

Results

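The proteasome genes of Saccharomyces cerevisiae were followed across 7 groups of chemostat cultures on yeast genome arrays. The set holds the genes with a probe set of their own whose symbol is RPN, RPT, PRE or PUP followed by a digit. That gave 33 of the 5656 genes measured. All 33 were above the floor of 12 signal units on every array, so all were among the 5461 genes tested. Of these, 31 encode subunits of the complex: 6 alpha and 7 beta subunits of the core particle, and 18 genes of the regulatory particle, made up of 6 ATPases, 4 scaffold or ubiquitin receptor genes and 8 lid genes. The other two are RPN4, which encodes a transcription factor, and RPN14, which encodes an assembly chaperone. The alpha subunit gene SCL1 and the lid gene SEM1 have other symbols and are given apart.

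The proteasome degrades proteins tagged with ubiquitin. Its core particle is a barrel with outer rings of alpha subunits and inner rings of beta subunits, of which those encoded by PRE3, PUP1 and PRE2 carry the proteolytic sites. The regulatory particle binds ubiquitin, removes it and feeds the protein into the barrel: its base holds the ATPases RPT1 to RPT6, the scaffolds RPN1 and RPN2 and the receptors RPN10 and RPN13, and its lid holds the deubiquitinating enzyme RPN11. Rpn4 activates most of these genes through a shared promoter element, and the Rpn4 protein is in turn degraded by the proteasome, which arrays of RNA do not measure.

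The mutant strain was msn2 msn4 in the CEN.PK113-7D background, with genotype ura3 msn2::loxP msn4::loxP-kanMX-loxP and a URA3 plasmid, which lacks a pair of stress-responsive transcription factors. It was grown under nitrogen (N) or carbon (C, glucose) limitation, and the prototrophic wild type CEN.PK113-7D under zinc (Zn), N, phosphorus (P), sulfur (S) or C limitation. The titles call all cultures anaerobic. Dilution was set to 0.10 per h, which fixes the growth rate, with the pH at 5.0 and a target of 17 g/L leftover glucose wherever carbon was not limiting. Each group has 3 arrays. The labels state independent cultures for every group but the C-limited wild type, whose spread may thus be technical. The protocol given for N-limited wild-type cultures describes air sparging and glucose limitation, against its titles.

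MSN2 signal was 12 to 13.7 in the mutant and 58.0 to 147 in the wild type. MSN4 signal was 34.5 to 55.6 in the mutant and 47.3 to 153 in the wild type, and these ranges overlap. URA3 signal was 1087 to 2472 in the mutant and 30.5 to 82.4 in the wild type. The arrays came from 4 deposits: the Zn-, N- and C-limited wild type each have their own, and the other 12 arrays share a deposit. Before scaling, the trimmed mean signal was 398 to 466 under Zn limitation, 247 to 311 under N and 235 to 251 under C limitation in the wild type, and 150.1 to 150.2 for the 12 others. P and S limitation can be compared within a deposit, as can both mutant groups; in the other comparisons deposit and group cannot be told apart. Replicate 1 of the C-limited mutant stood apart in genes chosen after their values were seen: its DAL5 signal was 1337, against 83.5 and 109 on the other 2 arrays of its group, and its RGI2 signal was at the floor of 12, against 302 and 225. In both genes it was nearer to the N-limited mutant, where DAL5 signal was 1577 to 2423 and RGI2 signal was 12 on all 3 arrays. Signals of different probe sets cannot be compared, so every comparison below is within a gene, and bulk RNA cannot tell a change in every cell from a change in some cells.

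**Figure D1:**
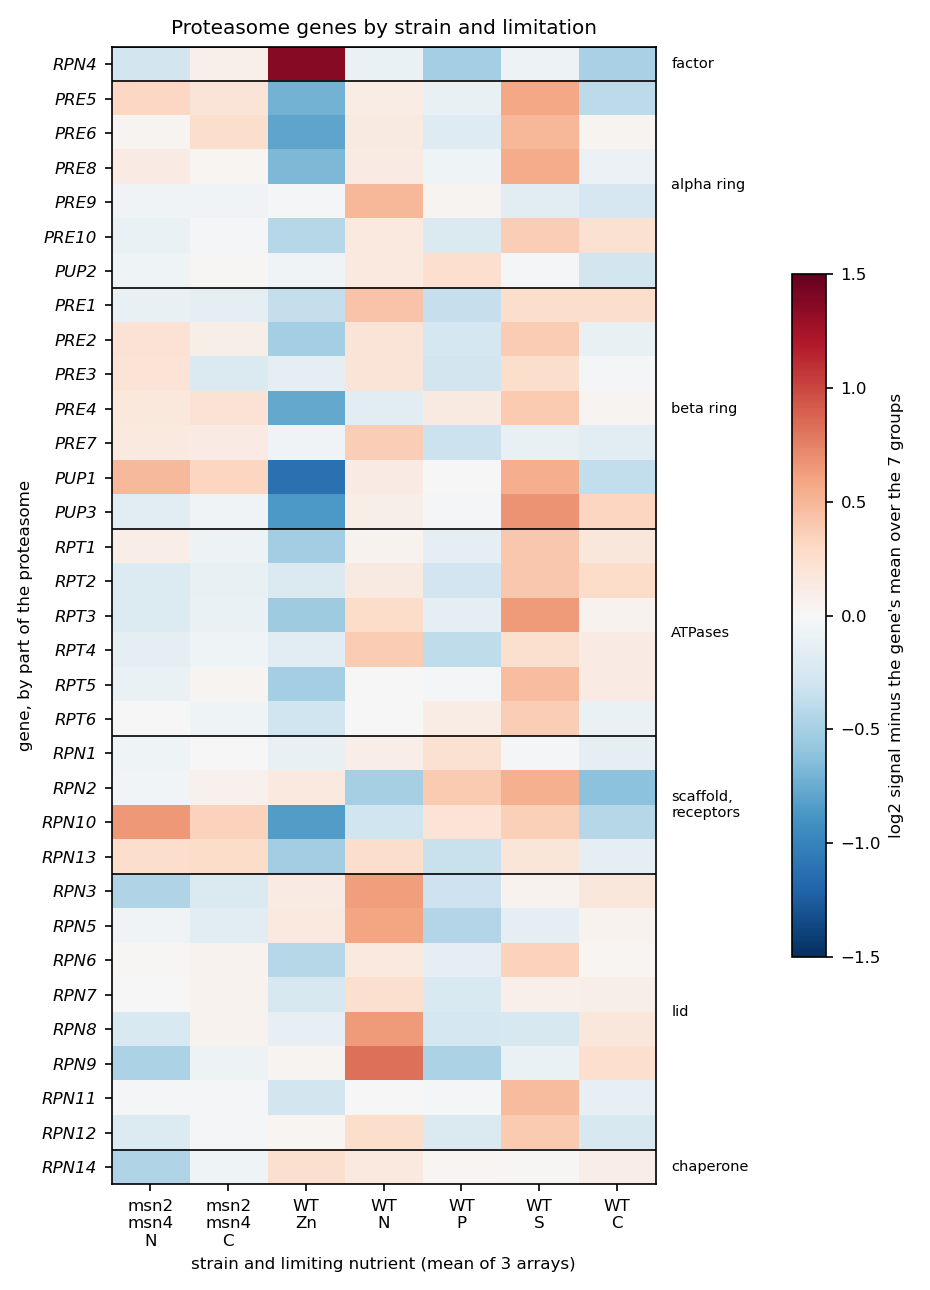
Mean log2 signal of the 33 proteasome genes in each group minus the gene's mean over the 7 groups; rows are genes by part of the complex, columns are the strain and limiting nutrient (mean of 3 arrays each), and red is above and blue below the gene's own mean. RPN4 is highest in the Zn-limited wild type, where most core particle genes are lowest.

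Among the 5 wild-type groups, the mean signal of 18 of the 31 subunit genes was lowest under Zn limitation, that of 8 under P limitation and that of 5 under C limitation. It was highest under S limitation for 19, under N limitation for 10 and under P limitation for 2. The shares of all genes by highest and lowest group are not given here, so these counts only describe the subunit genes. A moderated F test in limma over the 5 wild-type groups called 24 of the 33 genes at a Benjamini-Hochberg adjusted p under 0.05, beside 61.9% of all genes tested. Adjusted p-values here and below were taken over all 5461 genes, and differences are log2 ± SE of the fit.

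RPN4, the transcription factor gene (YDL020C), was the member that varied most. Its signal was 559.7, 734 and 674 on the Zn-limited arrays, 234, 233 and 243 on the N-limited, 251, 151 and 149 on the P-limited, 294, 206 and 229 on the S-limited, and 172, 164 and 205 on the C-limited wild-type arrays. The 3 Zn-limited arrays thus lay above the other 12 wild-type arrays, as was the case for 7.73% of all genes tested. Mean signal was 656 ± 88.4 under Zn limitation (SD, n = 3), against 243 ± 45.7 under S, 236 ± 5.60 under N, 184 ± 58.3 under P and 181 ± 21.8 under C limitation (SD, n = 3 each). RPN4 rose under Zn limitation in each comparison: 2.76-fold over N (1.46 ± 0.23, adjusted p = 1.9e-04), 3.66-fold over P (1.87 ± 0.23, adjusted p = 8.7e-06), 2.71-fold over S (1.44 ± 0.23, adjusted p = 1.4e-04) and 3.63-fold over C limitation (1.86 ± 0.23, adjusted p = 9.0e-06). These 4 comparisons share the Zn-limited arrays. Among the other wild-type groups no RPN4 difference was called, the furthest from 0 being -0.43 ± 0.23 for P minus S limitation (adjusted p = 0.30).

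**Figure D2:**
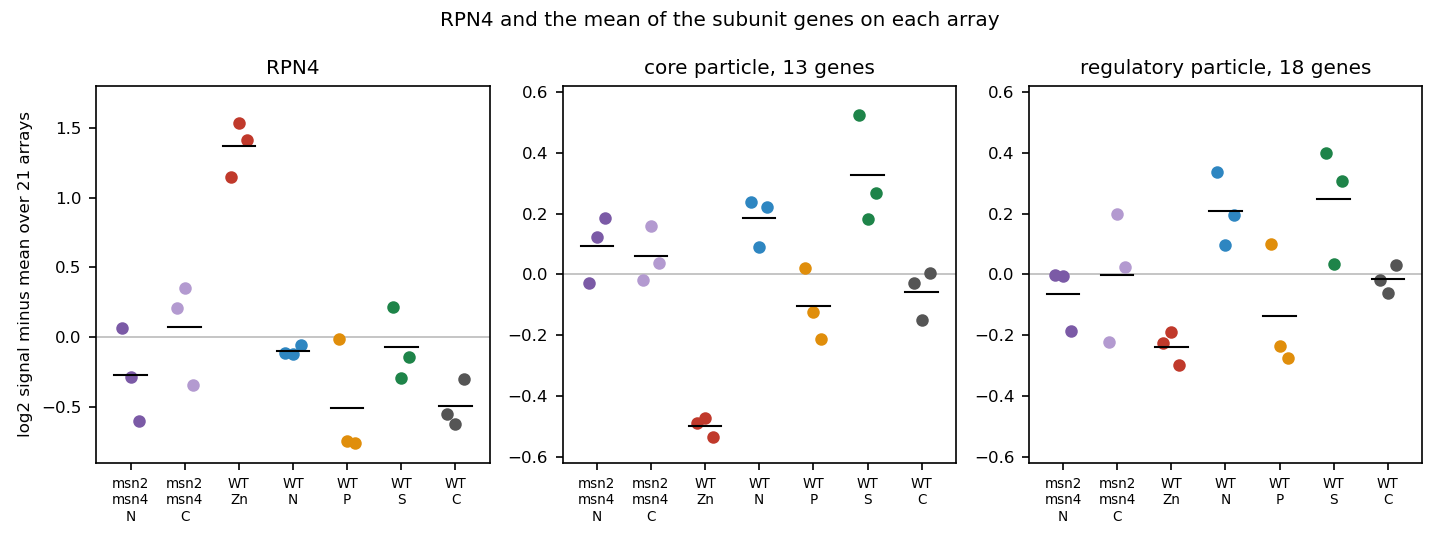
Log2 signal on each array minus the mean over the 21 arrays (y axis) by strain and limiting nutrient, for RPN4, for the mean of the 13 core particle genes and for the mean of the 18 regulatory particle genes; points are arrays and bars group means, and the RPN4 panel has a wider y axis. Under Zn limitation RPN4 averages 1.37 above its mean, the core particle genes average -0.50 and the regulatory particle genes -0.24.

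No subunit gene was called higher with RPN4 under Zn limitation. Averaged over the 31 subunit genes, each centred on its mean over the 21 arrays, log2 signal was -0.35 ± 0.05 under Zn limitation, against 0.20 ± 0.10 under N, -0.12 ± 0.17 under P, 0.28 ± 0.18 under S and -0.03 ± 0.06 under C limitation (SD, n = 3 arrays each). The core particle mean was -0.50 ± 0.03 and the regulatory particle mean -0.24 ± 0.05 in the Zn-limited arrays. The difference between these parts of the complex was not tested.

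Against S limitation, 17 subunit genes fell under Zn limitation and RPN4 alone rose, beside 12.6% of all genes lower and 33.5% called in either direction. Of these 17, 8 fell at least 2-fold, as did 5.15% of all genes. The median difference was -0.63 over the 33 genes, against 0.12 over all genes. The proteasome genes have mid to high signals, and calls differ with signal. Among the 1169 genes with a mean signal in the range of the 31 subunit genes (175 to 1334), 23.4% were lower and 11.5% higher, and the median difference was -0.13. Against N limitation 11 fell and RPN4 rose, beside 8.51% lower and 7.78% higher of all genes, with a median of -0.54 against -0.06 over all genes. In the signal range of the subunit genes 11.5% were lower, with a median of -0.09. Against C limitation 12 fell and RPN4 rose, beside 12.5% lower and 16.7% higher, with a median of -0.32 against 0.05. In the signal range of the subunit genes 21.3% were lower, with a median of -0.10. Without replicate 1 of the C-limited wild type the total called in that comparison was 8 in place of 13. Against P limitation 8 fell and RPN4 rose, beside 8.88% lower and 24.8% higher, with a median of -0.24 against 0.22. In the signal range of the subunit genes 18.0% were lower and 14.1% higher, with a median of -0.02, so the members called lower, 8 of 33, are nearer to that share. With arrays scaled to a common median signal, 17 fell against P limitation.

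Many of these genes also separated array by array. For 9 subunit genes all 3 Zn-limited arrays lay below the other 12 wild-type arrays, beside 3.59% of all genes. They were PRE6 and PRE8 of the alpha ring, PRE4, PUP1 and PUP3 of the beta ring, the ATPase genes RPT1, RPT3 and RPT5, and the receptor gene RPN10. The Zn-limited arrays also had the highest trimmed mean before scaling, and their actin 3′ to 5′ signal ratio, a measure of RNA quality, was 1.31 to 1.47, against 1.18 to 1.23 in the N-limited, 1.22 to 1.41 in the P-limited, 1.30 to 1.37 in the S-limited and 1.05 to 1.20 in the C-limited wild type. The part of these in the result was not tested. Within groups, the correlation of a subunit gene with the log2 actin ratio over the 21 arrays had a median of 0.05, from -0.71 for PRE10 to 0.43 for PRE6. For the others of the 9 genes it was -0.67 (RPT1), -0.59 (PRE8), -0.47 (PUP3), -0.26 (PRE4), -0.03 (RPT3), 0.15 (PUP1), 0.17 (RPT5) and 0.21 (RPN10). For RPN4, which is not a subunit gene, it was 0.39. The share of probe sets at the floor was 25.1% to 28.0% under Zn limitation and 27.8% to 33.6% in the other wild-type groups. Its correlation with a subunit gene had a median of -0.13, from -0.65 for RPN1 to 0.68 for PUP3, and with RPN4 it was 0.05. Its part in the result was not tested either.

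**Figure D3:**
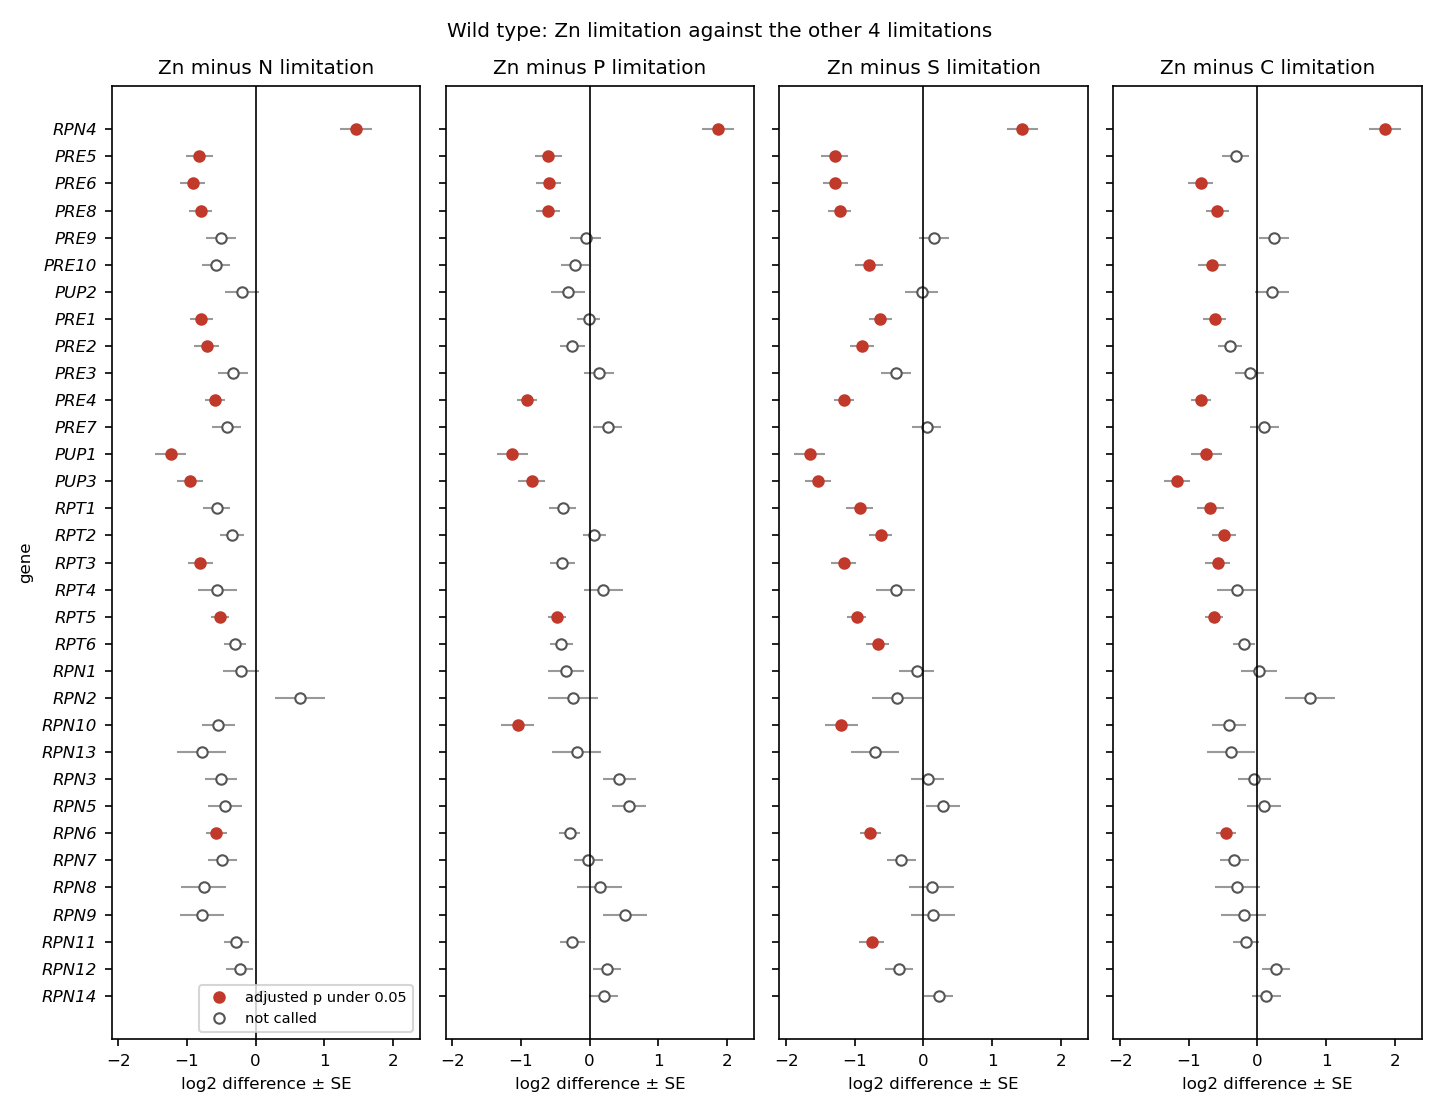
Log2 difference (x axis, ± SE) of each of the 33 proteasome genes between the Zn-limited wild type and, from left to right, the N-, P-, S- and C-limited wild type; filled points have an adjusted p under 0.05. RPN4 is the only filled point to the right of 0, and 11, 8, 17 and 12 genes are filled to the left of it.

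In the core particle, the beta ring gene PUP1, which encodes the subunit with trypsin-like activity (YOR157C), had the lowest estimate against S limitation. Its signal was 314, 243 and 206 on the Zn-limited arrays, 565, 586 and 622 on the N-limited, 484, 704 and 479.9 on the P-limited, 913, 610.2 and 885 on the S-limited and 409.9, 398 and 454 on the C-limited wild-type arrays. Every Zn-limited array was thus below every other wild-type array. PUP1 was lower under Zn limitation by 3.16-fold against S (-1.66 ± 0.23, adjusted p = 2.8e-05), 2.36-fold against N (-1.24 ± 0.23, adjusted p = 8.6e-04), 2.18-fold against P (-1.13 ± 0.23, adjusted p = 0.0011) and 1.68-fold against C limitation (-0.75 ± 0.23, adjusted p = 0.018).

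PUP3 (YER094C) is a beta ring gene without a catalytic site. It had a signal of 692, 746 and 768 on the Zn-limited arrays, against 1252, 1459 and 1571 under N, 1336, 1121 and 1535 under P, 2250.3, 2709.6 and 1595 under S and 1611, 1659 and 1719 under C limitation. The difference was -1.54 ± 0.19 against S limitation (2.91-fold lower, adjusted p = 1.1e-05) and -1.18 ± 0.19 against C limitation (2.26-fold lower, adjusted p = 1.6e-04). Of the other catalytic beta subunits, PRE2 (chymotrypsin-like) fell against S (-0.90 ± 0.18, adjusted p = 0.0011) and N limitation (-0.71 ± 0.18, adjusted p = 0.010), while its differences from P and C limitation were -0.25 and -0.40 and were not called. PRE3 (caspase-like) was called in no wild-type pair. It has 3 probe sets, whose Zn minus S differences were 0.30, -0.27 and -0.41, so its direction depends on the probe set. PRE4 fell against all 4 limitations, by 2.24-fold against S (-1.17 ± 0.15, adjusted p = 1.2e-05).

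The alpha ring, which gates entry to the barrel, gave 4 of 6 genes lower under Zn than under S limitation. Of all genes 12.6% were lower in that comparison, and 23.4% in the signal range of the subunit genes. PRE5 (YMR314W) had a signal of 278, 260.4 and 203 on the Zn-limited arrays, 506, 370.1 and 437 on the N-limited, 373, 415 and 333 on the P-limited, 750.5, 575 and 499.9 on the S-limited and 306, 252 and 369 on the C-limited arrays. The Zn-limited arrays overlap with the C-limited arrays only, and that difference was not called (-0.32 ± 0.20, adjusted p = 0.24). PRE5 fell 2.45-fold against S limitation (-1.29 ± 0.20, adjusted p = 9.0e-05). PRE6 had 305 to 498 signal units under Zn limitation, against 701 to 882 under N, 515 to 783 under P, 979.8 to 1076 under S and 672 to 835 under C limitation. PRE8 had 287 to 344 under Zn limitation, against 463 to 506 under P and 573 to 931 under S limitation. PRE9 and PUP2, of the same ring, were not called in any of the 4 Zn comparisons (from -0.51 to 0.24 for PRE9, from -0.31 to 0.21 for PUP2). SCL1, the alpha ring gene outside the name rule, was not called either (from -0.54 to 0.36), but it rose under N (0.91 ± 0.23, adjusted p = 0.010) and P limitation (0.72 ± 0.23, adjusted p = 0.032) against C limitation.

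In the base, 5 of the 6 ATPase genes, which encode the unfolding motor, fell under Zn against S limitation, all but RPT4 (-0.41). The count was 2 against N, 1 against P and 4 against C limitation. Of all genes 12.6% were lower against S, 8.51% against N, 8.88% against P and 12.5% against C limitation. In the signal range of the subunit genes these shares were 23.4%, 11.5%, 18.0% and 21.3%, and the 1 of 6 against P limitation is near its share. RPT5 was called in all 4 Zn comparisons. It had 169.8 to 186 signal units under Zn limitation, against 228 to 287 under P and 318 to 372 under S limitation. RPT5 has 4 probe sets, 1 of which is at the floor on all 21 arrays, and with the mean over probe sets its calls against C and P limitation were lost. The call against P limitation was also lost without replicate 1 of the P-limited arrays, and that against N limitation without replicate 1 of the N-limited arrays. Of the scaffold and receptor genes only RPN10, which encodes a ubiquitin receptor, was called. Its signal was 209, 220.2 and 250.4 on the Zn-limited arrays, 315, 317 and 357 on the N-limited, 444, 373 and 615 on the P-limited, 399, 597 and 584 on the S-limited and 291, 268 and 349 on the C-limited wild-type arrays. It fell against S (-1.20 ± 0.24, adjusted p = 0.0012) and P limitation (-1.05 ± 0.24, adjusted p = 0.0035), and not against N (-0.54, adjusted p = 0.15) or C limitation (-0.41, adjusted p = 0.22). RPN10 was also the 1 member whose 12 arrays of the shared deposit, mutant arrays included (365 to 782), all lay above the 9 arrays of the other deposits (209 to 357), so deposit and limitation cannot be told apart for it.

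**Figure D4:**
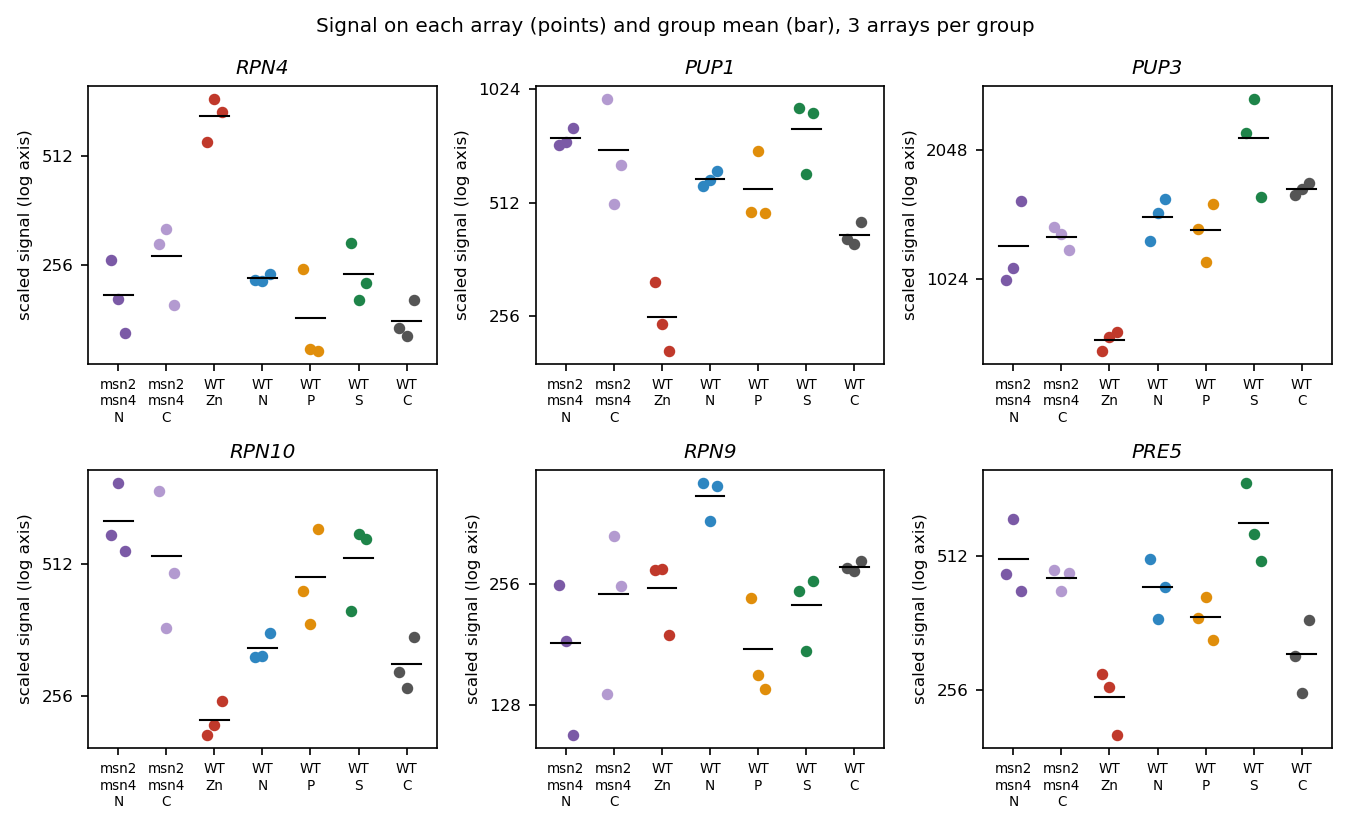
Scaled signal (log axis) of the 6 proteasome genes with the widest range of group means on each of the 21 arrays, by strain and limiting nutrient; points are arrays and bars are the arithmetic means of 3 arrays. The Zn-limited points of RPN4 lie above and those of PUP1, PUP3 and RPN10 below the other wild-type arrays, and the N-limited points of RPN9 lie above them.

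Of the 8 lid genes, RPN6 and RPN11 fell under Zn against S limitation (-0.77 ± 0.15 and -0.76 ± 0.19), and RPN6 also against N and C limitation. The 2 of 8 against S limitation are near the 23.4% lower in the signal range of the subunit genes. Several lid genes had their highest signals under N limitation. For PRE9 and PRE7 of the core particle and RPN3, RPN5, RPN8 and RPN9 of the lid, all 3 N-limited arrays lay above the other 12 wild-type arrays, beside 5.42% of all genes. RPN9 (YDR427W), a scaffolding subunit of the lid, had a signal of 460.3, 369 and 453 on the N-limited arrays, against 279, 280.4 and 191 under Zn, 237, 152 and 140.2 under P, 247, 174 and 261 under S and 282, 276 and 293 under C limitation. RPN3 had 315 to 363 under N limitation, against 206 to 273 under Zn, 135 to 236 under P, 177 to 282 under S and 227 to 263 under C limitation.

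Against P limitation, 7 genes rose under N limitation and none fell, beside 26.8% of all genes higher and 6.65% lower, and 16.3% higher and 13.9% lower in the signal range of the subunit genes. The 7 of 33 lie between these shares of higher calls. They were 4 lid genes, RPN9 (2.48-fold, 1.31 ± 0.32, adjusted p = 0.0055), RPN5 (2.04-fold, 1.03 ± 0.25, adjusted p = 0.0048), RPN3 (1.92-fold, 0.94 ± 0.24, adjusted p = 0.0068) and RPN8 (1.87-fold, 0.90 ± 0.33, adjusted p = 0.043), together with PRE1, PRE7 and RPT4. The median difference was 0.36 over the 33 genes, 0.28 over all genes and 0.05 in that signal range. Scaling arrays to a common median moved the all-gene median to -0.08 and gave 2 members higher and 4 lower. RPN5 and RPN9 were called higher in all 14 alternatives. RPN8 lost its call under 10 of the 14, RPT4 under 9, PRE7 under 4, and PRE1 and RPN3 under 1 each. The total was 11 without replicate 1 of the P-limited arrays and 4 without replicate 3 of either group.

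Against S limitation the members split under N limitation, with 3 higher (PRE9, RPN5 and RPN9) and 4 lower (PRE4, PUP3, RPT5 and RPN2), beside 17.9% higher and 7.16% lower of all genes. In the signal range of the subunit genes the shares were 8.73% higher and 14.1% lower, and the members are near these. PRE4 was the steadiest of these (-0.57 ± 0.15, adjusted p = 0.0100), keeping its call in all alternatives but the 1 without replicate 2 of the S-limited arrays. RPN2, the scaffold gene, had a signal of 322, 257 and 78.5 on the N-limited arrays, against 418, 303 and 439 on the S-limited arrays, and its call (-1.03 ± 0.37, adjusted p = 0.048) was lost under 8 of 14 alternatives, among them leaving out replicate 3 of the N-limited or any 1 of the S-limited arrays. RPT5 (-0.46 ± 0.13) lost its call with the mean over its probe sets, where the difference was -0.05 (adjusted p = 0.88), and under 4 other alternatives. The count for this comparison turned with the settings, from 0 higher and 15 lower with a common median to 4 higher and 3 lower with quantile normalisation. It was 0 without replicate 2 of the S-limited arrays, 3 without replicate 1 of those arrays or without any 1 of the N-limited arrays, and 7 as fitted. Against C limitation only PRE9 was higher under N limitation (1.68-fold, 0.75 ± 0.22, adjusted p = 0.021), and no member was lower, beside 14.8% higher and 8.72% lower of all genes, and 11.4% higher and 13.9% lower in the signal range of the subunit genes. That call was lost without replicate 1 or replicate 3 of the N-limited arrays and without replicate 1 or replicate 2 of the C-limited arrays.

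The core particle mean was 0.33 ± 0.18 under S limitation, the highest of the wild-type groups. For PRE6, PRE8, RPT5, RPN6 and RPN11 all 3 S-limited arrays lay above the other 12 wild-type arrays, beside 2.29% of all genes. P and S limitation share a deposit, and 9 members were lower under P than under S limitation and none higher, beside 4.61% lower and 2.75% higher of all genes. They were PRE5, PRE6 and PRE8 of the alpha ring, PRE1, PRE2 and PUP3 of the beta ring, and the ATPase genes RPT2, RPT3 and RPT5, with RPT3 the furthest at 1.70-fold (-0.76 ± 0.18, adjusted p = 0.013). RPT3 signal was 212 to 283 under P limitation, against 294 to 504 under S limitation. The median difference was -0.50 over the 33 genes, against -0.08 over all genes and -0.13 over the 1169 genes of the same signal range, of which 7.19% were lower and 5.39% higher. This count had little margin: it was 0 with arrays scaled to a common median, 0 with only the 6 arrays compared, 0 without replicate 1 of the S-limited arrays, and 2 without replicate 2 of the S-limited or replicate 2 or 3 of the P-limited arrays.

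Against C limitation, 9 members were higher under S limitation and none lower, beside 9.12% higher and 13.0% lower of all genes, and 15.9% higher and 13.6% lower in the signal range of the subunit genes. PRE5 (1.96-fold, 0.97 ± 0.20, adjusted p = 0.0021) and PUP1 (1.88-fold, 0.91 ± 0.23, adjusted p = 0.0077) kept the call under all 14 alternatives. The others were PRE8, RPT3, RPT6, RPN2, RPN10, RPN11 and RPN12. The total was 3 without replicate 1 or replicate 2 of the C-limited arrays and 4 without replicate 1 or replicate 2 of the S-limited arrays. P against C limitation gave 2 lower, PRE1 (-0.61 ± 0.17, adjusted p = 0.014) and RPT2 (-0.55 ± 0.17, adjusted p = 0.025), and none higher, beside 18.0% lower and 7.58% higher of all genes, and 18.7% lower and 13.4% higher in the signal range of the subunit genes. With arrays scaled to a common median that comparison gave 3 higher and none lower. It gave 0 without replicate 3 of the P-limited arrays, 1 without replicate 2 of the C-limited arrays and 4 (2 of them higher) without the C-limited mutant array that stood apart.

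The scaffold gene RPN1, the receptor gene RPN13, the lid gene RPN7, the alpha ring gene PUP2, the beta ring gene PRE3 and the chaperone gene RPN14 were called in no wild-type pair. RPN13 is not thereby shown to be steady: its signal ran from 193 to 472 under Zn limitation and from 282 to 920 under S limitation.

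The mutant comparisons ask whether the absence of MSN2 and MSN4 changes these genes at the same limitation. Under C limitation limma called no member between mutant and wild type, beside 3.59% of all genes higher and 4.03% lower. At an unadjusted p under 0.05 there were 6 members, and the share of all genes at that threshold is not given here. RPN4 had a signal of 292, 322 and 199.7 in the C-limited mutant, against 172, 164 and 205 in the C-limited wild type, and these overlap (0.57 ± 0.23, adjusted p = 0.14). Without replicate 2 of the C-limited mutant 3 members were called, 2 of them higher, and without replicate 1, which stood apart, 0 were called. Mutant and wild type come from different deposits, so strain and deposit cannot be told apart.

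Under N limitation 3 members were lower in the mutant than in the wild type and 1 was higher. Of all genes 13.0% were lower and 5.57% higher. In the signal range of the subunit genes 8.98% were lower and 9.75% higher. The 3 of 33 lower are near the share in that range, and the 1 of 33 higher is below both shares. RPN9 signal was 255, 185 and 107 in the N-limited mutant, against 460.3, 369 and 453 in the N-limited wild type, with no overlap (2.48-fold lower, -1.31 ± 0.32, adjusted p = 0.011), a call lost without replicate 3 of the mutant. RPN3 signal was 182, 162 and 135 in the mutant, against 363, 315 and 328 in the wild type (2.11-fold lower, -1.08 ± 0.24, adjusted p = 0.0060). Both lid genes had been highest in the N-limited wild type, and the comparison uses those same arrays. PRE1 was lower (-0.54 ± 0.17, adjusted p = 0.035) and lost that call without any 1 of 5 of the 6 arrays. RPN10 was higher (0.95 ± 0.24, adjusted p = 0.014). Its signal was 596, 782 and 546 in the mutant, against 315, 317 and 357 in the wild type. As given above, all its arrays of the shared deposit lay above those of the other deposits. Strain and deposit cannot be told apart here, for RPN10 or the other members. The RPN10 call was lost, and the total was 2, without replicate 2 of the N-limited mutant or replicate 1 of the N-limited wild type.

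RPN4 was not among these genes: its signal was 264, 208 and 167 in the N-limited mutant, against 234, 233 and 243 in the N-limited wild type (-0.18 ± 0.23, adjusted p = 0.63). Between N and C limitation within the mutant, limma called no member, with 0 at an unadjusted p under 0.05, beside 0.0549% of all genes higher and 0.0183% lower. With so few genes called at all, the lack of member calls says little about these limitations in the mutant. The C-limited group includes replicate 1, which was nearer to N limitation in DAL5 and RGI2. The total was also 0 without that array. PUP1 signal was 727, 739.8 and 810.0 in the N-limited mutant, against 968, 506 and 643 in the C-limited mutant. PUP3 signal was 1017, 1086 and 1556 in the N-limited mutant, against 1356, 1303 and 1198 in the C-limited mutant. The difference of the mutant effects between N and C limitation was called for no member, beside 0.568% of all genes higher and 1.12% lower. It uses the same replicate 1 of the C-limited mutant, and the total was also 0 without it. At an unadjusted p under 0.05 there were 4 members, and the share of all genes at that threshold is not given here.

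Proteasome genes also moved together to unequal degrees from array to array. Within groups, the deviation of a subunit gene from its group mean correlated with that of the mean of the other subunit genes at a median of 0.44 over the 21 arrays, with 13 of 31 above 0.5. RPN3 had the highest value (0.84) and RPT4 followed (0.79), while RPN10 (-0.58), PUP3 (-0.34), PUP1 (-0.20) and RPT3 (-0.02) were below 0. These arrays share probe chemistry and scaling, and the values are a description. The genes with the lowest values include PUP1, PUP3 and RPN10, and in replicate 1 of the C-limited mutant PUP1 (968) and RPN10 (749.7) were the highest of their group while RPN9 (136) was the lowest.

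Other genes of the pathway were taken from lists chosen with earlier results of these data known. Of 6 regulators of RPN4 expression or stability, 2 rose and 1 fell under Zn against P limitation, beside 24.8% higher and 8.88% lower of all genes. Against N and against S limitation 1 fell and none rose, beside 8.51% and 12.6% of all genes lower. Against C limitation limma called 0, beside 12.5% of all genes lower and 16.7% higher. There 1 had an unadjusted p under 0.05, a threshold at which the share of all genes is not given here. HSF1, the heat shock factor gene, fell under Zn against N (-0.90 ± 0.29), S (-0.98 ± 0.29) and P limitation (-1.25 ± 0.29). Its mean signal was 68.0 under Zn and 56.9 under C limitation, so the lower signal is not particular to Zn limitation. YAP1, an oxidative stress factor gene, rose under Zn against P limitation (0.97 ± 0.31), as did MUB1, whose product helps to mark Rpn4 for degradation (0.91 ± 0.23).

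Of 13 assembly factors and proteasome-bound proteins, 5 fell and 1 rose under Zn against S limitation, beside 12.6% of all genes lower and 33.5% called in either direction. The counts were 2 lower and 0 higher against N, 3 lower and 2 higher against P and 4 lower and 0 higher against C limitation. Of all genes 8.51% were lower and 7.78% higher against N, 8.88% and 24.8% against P, and 12.5% and 16.7% against C limitation. PBA1, which encodes a chaperone of the alpha ring, fell against S (-1.34 ± 0.21, adjusted p = 1.5e-04), N (-1.08 ± 0.21), P (-0.99 ± 0.21) and C limitation (-0.62 ± 0.21). UMP1, a maturation factor of the core particle, fell against S, N and C limitation (-0.59, -0.80 and -0.78). HSM3, a chaperone of the base, rose against S (1.17 ± 0.34) and P limitation (1.04 ± 0.34). Its signals were low beside the floor of 12, with means of 24.1 under S, 27.1 under P and 27.9 under C limitation. The mean was 52.8 under Zn and 49.2 under N limitation, so the higher signal is not particular to Zn limitation.

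Of 12 genes for ubiquitin shuttling, unfolding and recycling, 8 fell under Zn against S limitation and none rose, beside 12.6% of all genes lower, with a list median of -0.61 against 0.12 over all genes. The counts were 3 lower and 0 higher against N, 4 lower and 1 higher against P and 2 lower and 1 higher against C limitation. Of all genes 8.51% were lower and 7.78% higher against N, 8.88% and 24.8% against P, and 12.5% and 16.7% against C limitation. The 2 of 12 lower against C limitation are near that share. Among the 12 genes OTU1, which encodes a deubiquitinating enzyme, fell in all 4 Zn comparisons (from -1.26 to -0.93). So did DDI1, a shuttle gene (from -1.27 to -0.73). CDC48, the unfolding ATPase gene, fell against S (-0.79 ± 0.16) and N limitation (-0.62 ± 0.16). RAD23, another shuttle gene, was lower than under S limitation (-0.68 ± 0.22) and higher than under C limitation (1.06 ± 0.22). Of 20 ubiquitin supply and conjugation genes tested, 6 fell and none rose under Zn against S limitation, beside 12.6% of all genes lower and 23.4% in the signal range of the subunit genes, which is not that of this list. The counts were 3 lower and 0 higher against N, 2 lower and 2 higher against P and 4 lower and 2 higher against C limitation, beside the all-gene shares given above for these 3 comparisons. The 2 of 20 lower against P limitation are near the 8.88% of all genes. UBI4, the polyubiquitin gene, rose under Zn against C (0.70 ± 0.21) and P limitation (0.58 ± 0.21). Its mean signal was 1115 under Zn, 1062 under N, 1002 under S, 752 under P and 691 under C limitation. It was also called higher under N than under C limitation, so the higher signal is not particular to Zn limitation. UBC5, a ubiquitin-conjugating enzyme gene, fell under Zn against C (-1.39 ± 0.18), N (-1.18 ± 0.18) and S limitation (-0.82 ± 0.18). Its mean signal was 52.3 under Zn and 51.3 under P limitation, so the lower signal is not particular to Zn limitation. UBC11 was at the floor on all arrays and was not tested. The lid gene SEM1, outside the name rule, was called in no comparison.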

How the data were processed

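RNA of 21 chemostat cultures was measured on Affymetrix YG-S98 arrays. The values used are the authors' deposited linear signal intensity per probe set, from GCOS 1.2 where the submitters' processing notes name it, with no scanner files used here; the number of arrays limits the precision. Each array of 9335 probe sets was scaled to a common 2% trimmed mean (150.1), raised to a floor of 12 and taken to log2; 6504 probe sets match 1 gene, the brightest per gene gave 5656 genes, of which 195 that never exceeded the floor were dropped. Means of 7 groups were fitted over 21 arrays with limma 3.58.1 in R 4.3.3 (moderated test, Benjamini-Hochberg over 5461 genes, called at an adjusted p under 0.05 with no fold minimum), after a test on simulated data. The text could name the 33 members, the genes of the pathway lists and MSN2, MSN4 and URA3; values on every array are given for the 6 members with the widest range of group means, and RPN3, RPN2, DAL5 and RGI2 were added after their values were seen. The members and lists were chosen with earlier results of these data known. Alternatives were other scalings, floors, filters, probe set rules, array sets and the replicate number as a block. Gene names follow the RefSeq R64 table. Promoter motifs were not analysed here.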

Additional observations from a re-analysis of the deposited data

Results flagged for a closer look

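The difference of the mutant effects, N minus C limitation, passed the limma threshold for 2 genes of the pathway lists, neither a subunit gene. They were 1 of 20 ubiquitin supply and conjugation genes, lower, and 1 of 13 assembly factors and proteasome-bound proteins, higher. Of all genes 1.12% were lower and 0.568% higher. The search covered the 33 members and all the lists, and over so many genes 2 calls are near these shares. For CDC34, which encodes a ubiquitin-conjugating enzyme, it was -1.41 ± 0.34 on the log2 scale (adjusted p = 0.042). Its mean signal was 131 ± 34.8 in the N-limited mutant, against 185 ± 39.9 in the N-limited wild type, and 170.2 ± 31.8 in the C-limited mutant, against 91.0 ± 11.2 in the C-limited wild type (SD, n = 3 each). For POC4, which encodes an assembly chaperone of the core particle, it was 1.40 ± 0.29 (adjusted p = 0.019), with 497 ± 111 in the N-limited mutant, against 224 ± 15.4 in the N-limited wild type, and 419 ± 85.1 in the C-limited mutant, against 501 ± 39.9 in the C-limited wild type. Strain and deposit cannot be told apart in either. The difference uses replicate 1 of the C-limited mutant, which stood apart, and no alternatives are given here for these 2 genes.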

How the results depend on the processing

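Of 91 called differences of members, 1055 of 1274 values under the alternatives kept direction and call, 219 lost the call and 0 changed direction; RPN4 in its 4 Zn comparisons and the 17 genes lower under Zn than under S limitation kept their calls under all 14. Total members called were, with arrays scaled to a common median, 0 for N minus C (1 as fitted), 3 for P minus C (2), 0 for P minus S (9), 15 for N minus S (7), 6 for N minus P (7, with direction turned to 2 higher and 4 lower) and 18 for Zn minus P (9). With quantile normalisation they were 2 for N minus C, 1 for P minus C and 7 for N minus S (4 higher, 3 lower). With only the arrays compared they were 7 for N minus C, 4 for S minus C, 0 for P minus S, 6 for N minus S (4 higher, 2 lower), 4 for N minus P and 8 for the mutant against the wild type under N limitation (4). Leaving out 1 array in turn, totals ran from 0 to 3 for N minus C, 3 to 9 for S minus C, 0 to 4 for P minus C, 8 to 13 for Zn minus C, 0 to 9 for P minus S, 0 to 10 for N minus S, 4 to 11 for N minus P, 10 to 14 for Zn minus N, 18 to 20 for Zn minus S, 7 to 9 for Zn minus P, 0 to 3 for the mutant under C limitation and 2 to 5 under N limitation. With the replicate number as a replicate block the total for N minus S was 4; those for the other comparisons were within 1.5 times. In no pair of groups did same-numbered arrays all correlate above 0.1, so pairing by number was not shown. With 3 arrays per group it is not excluded. Each array correlated best with its own number between the S- and C-limited wild type (0.08 to 0.19). The same held between the N-limited mutant and the Zn-limited wild type (0.09 to 0.17). The causes were not tested. Motif counts were not run, as no promoter sequences were used here.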
